A study of Mus musculus with 6 samples.

Results

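Transcripts of 10 genes that encode gap junction and related channel proteins were measured in 6 primary cell cultures of mouse dorsal root ganglia. The genes were 7 connexins (Gja1, Gja4, Gjb1, Gjb2, Gjc1, Gjc3 and Gjd2) and the 3 pannexins (Panx1, Panx2 and Panx3), taken by symbol from a table of 45703 genes. The dorsal root ganglia hold the cell bodies of sensory neurons together with their satellite glia, Schwann cells, connective tissue and vessels. All 6 samples were 1 group: wild type C57BL/6 mice, adult at 4 to 6 weeks, with no added genotype or treatment and no control group. Cells from digested ganglia were plated and kept for 7 days in medium with 10% fetal calf serum that also held EGF and FGF (10 ng/ml), and RNA of 2 dishes was pooled for each sample. The cultures were mixed, so a level is that of the whole dish and not of a cell type.

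Connexins are membrane proteins that assemble as hexamers, and hexamers of adjoining cells dock to form gap junction channels through which ions and small metabolites pass directly between cells. Undocked connexin hexamers can open to the outside of the cell. Pannexins share the membrane topology of connexins but not their sequence, and act mainly as single-membrane channels; Panx1 is known as a route of ATP release. In the ganglion, gap junctions couple satellite glia around neurons, and in the peripheral nerve the connexins Cx32 and Cx29 belong to myelinating Schwann cells.

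The libraries held 20070639 to 22968642 counts, and their TMM scaling factors, which adjust library sizes for differences in composition, lay between 0.976 and 1.02. Pearson's r of log2 CPM across genes, which are not independent replicates, ranged from 0.945 to 0.992 over the 15 pairs of libraries. CPM scales each count by the summed counts of the library, and levels of different genes are compared as CPM per kilobase (kb) of combined exon length. Replicate 5 stood apart in its cell type markers. Summed CPM of 7 fibroblast genes was 13977 there against 3339 to 7452 in the other cultures, that of 7 mural genes (vessel wall cells) 1401 against 180 to 773, that of 7 endothelial genes 136 against 10.5 to 47.8, and that of 6 meningeal genes 119 against 8.97 to 44.6. The 8 macrophage genes summed to 151 CPM there and to 15.8 to 127 CPM elsewhere. The 6 glial lineage genes summed to 4766 CPM in replicate 5 and to 5892 to 6901 CPM elsewhere, and the 8 myelin genes to 1981 against 3903 to 4846 CPM. The 9 neuron genes summed to 906 CPM there and to 1023 to 1967 CPM elsewhere. The tissue label was matched by its markers: all 6 glial lineage genes, all 8 myelin genes and all 9 neuron genes reached 1 CPM in every library. Of 4 keratinocyte genes, Krt5 was at 0 counts in every library and the list summed to at most 0.319 CPM.

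Gjc3, Panx1, Gja1 and Gjc1 supplied nearly all of the signal, and the other members were low or not detected. Mean levels were 30.5 ± 6.82 CPM per kb for Gjc3, 24.4 ± 1.20 for Panx1, 20.8 ± 9.20 for Gja1 and 9.34 ± 1.16 for Gjc1 (SD, n = 6 for each). Gja4 followed at 1.19 ± 0.988, Gjb1 at 0.834 ± 0.245, Gjb2 at 0.589 ± 0.787 and Panx2 at 0.264 ± 0.121 CPM per kb. Gjd2 had 0 counts in all 6 libraries, and Panx3 had 3 counts in replicate 3 and 0 in the others. A count of 0 allows up to 3 counts, or 0.131 to 0.149 CPM in these libraries, so Gjd2 was not detectable at this depth, and the 3 counts of Panx3 in replicate 3 (0.138 CPM) were at that limit. Such limits cover counting error only.

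**Figure D1:**
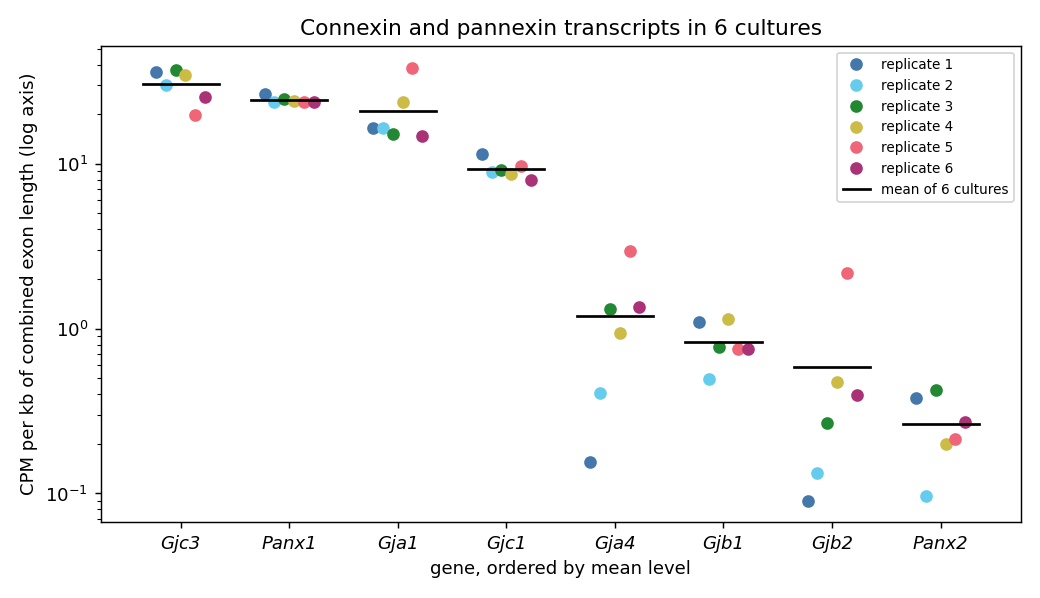
Levels of the 8 detected members in CPM per kb of combined exon length, on a log axis; each point is 1 culture and each bar the mean of 6. Gjc3, Panx1, Gja1 and Gjc1 lie above 8 CPM per kb in every culture, the other 4 below 3, and the points of replicate 5 are the highest for Gja1, Gja4 and Gjb2 and the lowest for Gjc3.

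The order of levels was tested within libraries for all 45 pairs of members, on the difference in log2(CPM per kb + 0.1), by flipping the signs of its 6 values in all ways (exact permutation, two-sided). In 37 pairs all 6 libraries gave the same order, and the same 37 passed after Benjamini-Hochberg adjustment over 45 pairs (exact permutation p = 0.0312, the smallest that 6 libraries can give, adjusted p = 0.038). Of these, 16 set a detected member above Gjd2 or Panx3, which the near absence of counts for both genes fixes. Among the 28 pairs of the 8 detected members, 21 had the same order in every library and passed (exact permutation adjusted p = 0.0417 over the 28). Each of Gjc3, Panx1, Gja1 and Gjc1 was above each of the 6 other members in every library, and Gjc1 was the lowest of these 4. Gja1 exceeded Gjc1 by 1.07 ± 0.537 on the log2 scale, and Gjc1 exceeded Gja4 by 3.27 ± 1.36 (SD, n = 6). Among Gjc3, Panx1 and Gja1 no neighbour in the order differed beyond its spread. Gjc3 was above Panx1 in 5 of 6 libraries, by 0.28 ± 0.313 (exact sign-flip permutation p = 0.0938, adjusted p = 0.108), and Panx1 was above Gja1 in 5 of 6, by 0.32 ± 0.563 (exact sign-flip permutation p = 0.25, adjusted p = 0.268). The exception was replicate 5 in both cases. Among the low members, Gja4 and Gjb1 (difference 0.10 ± 1.38), Gjb1 and Gjb2 (0.95 ± 1.32), and Gjb2 and Panx2 (0.44 ± 1.42) did not pass, with exact permutation adjusted p = 0.831, 0.206 and 0.589. Gja4 with Panx2 did not pass either, at a difference of 1.49 ± 1.37 and an exact permutation adjusted p = 0.074.

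Gjc3 encodes Cx29, a connexin of Schwann cells found at the inner membrane facing the axon. The gene lies on the minus strand of chromosome 5, 137950992 to 137963098 (GRCm38.p6), and had the highest mean level of the 10. Its CPM was 148, 123, 153, 142, 81.1 and 105 in replicates 1 to 6, so replicate 5 was the lowest and replicates 1, 3 and 4 were close together. Its counts, from 1698.67 to 3403.94, were fractional in all 6 libraries, while every other member had whole counts throughout. The source of the fractions was not tested, and the level of Gjc3 is less certain than theirs.

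Gja1 encodes Cx43, the most widely expressed connexin, found in astrocytes, fibroblasts and satellite glia. It lies on the plus strand of chromosome 10, 56377300 to 56390419. Its CPM was 51.2, 51.2, 47.2, 73.7, 119 and 45.8 in replicates 1 to 6. Replicate 5 was highest and replicate 4 next, and the remaining 4 cultures lay within 45.8 to 51.2 CPM. Without replicate 5 the mean fell from 64.7 ± 28.6 CPM (SD, n = 6) to 53.8 ± 11.4 CPM (SD, n = 5). The ratio of Gja1 to Gjc3 in CPM per kb was 0.458, 0.551, 0.409, 0.688, 1.95 and 0.578 in replicates 1 to 6. Gjc3 was thus the higher of the pair in 5 of 6 cultures and Gja1 in replicate 5. The difference of 0.61 ± 0.809 (log2, Gjc3 minus Gja1, SD, n = 6) did not exceed its spread (exact permutation over sign flips, p = 0.156, adjusted p = 0.176). It was 0.92 without replicate 5, where all 5 cultures had the same order.

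The windows of 250 bases before the RefSeq start sites of these leading connexins are shown because their levels stood at opposite extremes in replicate 5. Sequences are from RefSeq on GRCm38.p6, written 5′ to 3′ on the strand of the gene, and capitals mark every match, on either strand, to 4 motifs: TGANTCA (AP-1), ACAANG (SOX), GGGCGG (GC box) and GGAATG (TEAD). No printed matches overlap.
Gjc3, chr5:137963099-137963348, minus strand: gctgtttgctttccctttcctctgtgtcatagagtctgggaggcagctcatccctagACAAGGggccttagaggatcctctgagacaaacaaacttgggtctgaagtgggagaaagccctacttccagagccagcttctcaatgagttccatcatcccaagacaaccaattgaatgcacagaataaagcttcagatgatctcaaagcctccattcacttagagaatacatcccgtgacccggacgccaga
Gja1, chr10:56377050-56377299, plus strand: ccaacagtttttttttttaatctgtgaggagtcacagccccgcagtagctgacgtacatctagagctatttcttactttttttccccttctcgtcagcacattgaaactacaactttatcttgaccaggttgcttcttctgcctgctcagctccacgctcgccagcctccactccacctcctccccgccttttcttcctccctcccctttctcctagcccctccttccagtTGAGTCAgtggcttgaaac
In the Gja1 window the single match was to the AP-1 motif, from 19 to 13 bases before the start. The Gjc3 window held a single SOX match, from 193 to 188 bases before the start. Of all 32851 RefSeq windows of this length, 6.75% held the AP-1 motif, 36.3% the SOX motif, 32.7% the GC box and 12.6% the TEAD motif. A match describes the letters only, and binding was not measured.

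Gjc1 encodes Cx45, a connexin of the heart's conduction system and of vascular smooth muscle. It lies on chromosome 11, 102799477 to 102819686. Its CPM was 38.4, 30.2, 30.9, 29.3, 32.8 and 27.1 in replicates 1 to 6. The values lay close together, with replicate 1 highest and replicate 6 lowest, and the spread was 12.4% of the mean. Replicate 5, the extreme for Gja1 and Gjc3, was the second highest for Gjc1.

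Gjb1 encodes Cx32, the connexin of uncompacted Schwann cell myelin, whose mutation causes X-linked Charcot-Marie-Tooth neuropathy. It lies on chromosome X, 101376376 to 101385629, and RefSeq lists 4 start sites for it, which gene counts do not separate. Counts were 51, 22, 34, 47, 32 and 32 in replicates 1 to 6, or 1.00 to 2.34 CPM. No culture reached 3 CPM. The 8 myelin genes ranged widely in the same libraries. Mbp and Pmp22 were the highest, at 1723 ± 609 and 1160 ± 317 CPM on average (SD, n = 6). Mag and Pllp were the lowest, at 4.70 ± 2.95 and 8.07 ± 3.87 CPM (SD, n = 6). These values are not divided by length. Replicate 5, the lowest for the summed myelin genes, was not the lowest for Gjb1 (1.53 CPM); replicate 2 was. Per kb, Gjc3 exceeded Gjb1 in all 6 libraries.

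Gja4 encodes Cx37, a connexin of arterial vessel walls and the ovarian follicle, and Gjb2 encodes Cx26, known from the cochlea, the skin and the meninges. Gja4 (chromosome 4, 127311420 to 127314039) had 6, 15, 48, 32, 104 and 48 counts in replicates 1 to 6, and 0.261, 0.683, 2.22, 1.59, 4.97 and 2.29 CPM. Gjb2 (chromosome 14, 57098602 to 57104702) had 5, 7, 14, 23, 109 and 20 counts, and 0.218, 0.319, 0.646, 1.15, 5.21 and 0.956 CPM. Replicate 1 was the lowest and replicate 5 the highest culture for both genes. From the lowest to the highest culture, Gja4 spanned 19.0-fold and Gjb2 23.9-fold, against 2.60-fold for Gja1, 1.89-fold for Gjc3 and 1.13-fold for Panx1. Without replicate 5 the mean of Gjb2 was 0.657 CPM in place of 1.42, a change of more than 1.5 times that rests on that culture, and that of Gja4 was 1.41 in place of 2.00.

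The windows of 250 bases before the start sites of Gja4 and Gjb2 are shown as those of the members with the widest range, with the same capitals as above.
Gja4, chr4:127314040-127314289, minus strand: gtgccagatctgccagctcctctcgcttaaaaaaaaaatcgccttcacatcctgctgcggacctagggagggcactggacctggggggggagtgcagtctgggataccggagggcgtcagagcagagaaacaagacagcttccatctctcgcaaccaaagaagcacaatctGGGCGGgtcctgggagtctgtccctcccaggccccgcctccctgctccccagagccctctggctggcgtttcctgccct
Gjb2, chr14:57104703-57104952, minus strand: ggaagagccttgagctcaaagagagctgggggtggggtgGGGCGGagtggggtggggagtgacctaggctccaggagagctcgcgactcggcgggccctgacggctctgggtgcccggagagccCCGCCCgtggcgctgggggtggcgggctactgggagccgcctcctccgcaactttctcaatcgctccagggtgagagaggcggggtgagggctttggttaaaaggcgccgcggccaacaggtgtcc
The Gja4 window held a single GC box, from 79 to 74 bases before the start. The Gjb2 window held 2, from 211 to 206 and from 126 to 121 bases before the start. Of their bases, 61.2% were G or C for Gja4 and 69.2% for Gjb2, against 48.8% for Gjc3 and 50.0% for Gja1. The median over all windows was 52.4%. The share was 59.6% for Panx1, which spanned only 1.13-fold, 74.0% for Gjd2 and 40.4% to 58.4% for the 4 Gjb1 windows. Among the 7 members with a window, high shares were thus not particular to those with the widest range. No window was found for Gjc1, Panx2 and Panx3.

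Gjd2 encodes Cx36, the connexin of electrical synapses between neurons. It was at 0 counts in all 6 libraries, although neuronal genes such as Tubb3 (458 ± 100.4 CPM), Stmn2 (319.5 ± 118 CPM) and Scn10a (83.5 ± 35.6 CPM) were well counted in them (SD, n = 6).

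The connexin pool was made up mainly of the same 3 genes in every culture, in differing proportions. Of the summed CPM per kb of all 20 mouse connexin genes, Gjc3 took 48.3% ± 11.3, Gja1 31.8% ± 9.97 and Gjc1 14.7% ± 1.91 (SD, n = 6). Together they took 89.8% to 97.6%. The share of Gjc3 was 55.0, 52.3, 57.5, 49.1, 26.1 and 49.6% in replicates 1 to 6, and that of Gja1 was 25.2, 28.8, 23.5, 33.8, 50.8 and 28.7%. Replicate 5 was the only culture with more Gja1 than Gjc3, and without it the mean shares were 28.0% for Gja1 and 52.7% for Gjc3. Gja4 contributed 0.237% to 3.90%, Gjb1 0.860% to 1.67% and Gjb2 0.138% to 2.87%. With no division by length, the mean shares of Gja4 and Gjb1 were 0.875% and 0.740%, in place of 1.81% and 1.30%. The summed level itself was 51.5 to 75.6 CPM per kb, and replicate 5 was the highest. The 13 connexins that are not members took 0.326% to 2.44%, and none had a mean of 1 CPM.

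**Figure D2:**
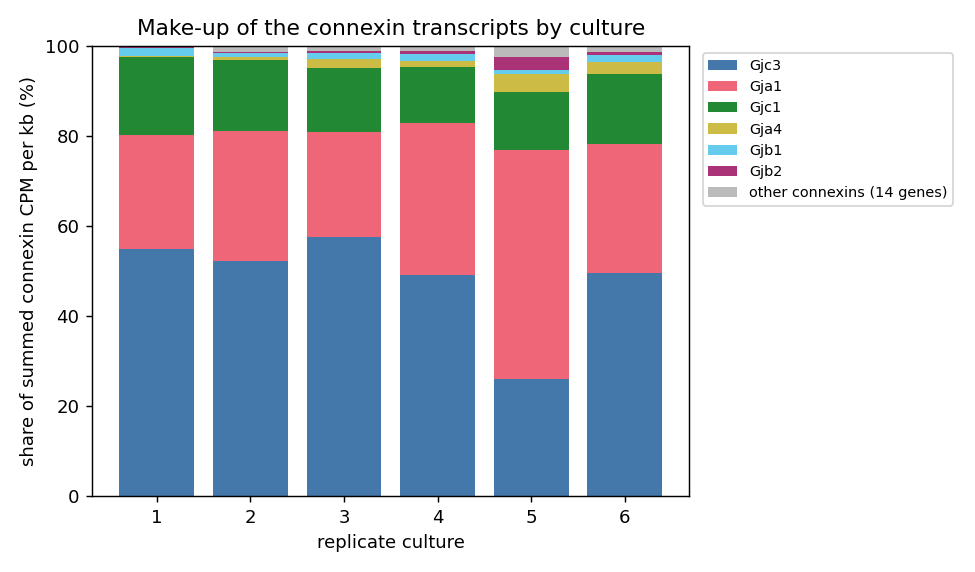
Share of the summed CPM per kb of 20 connexin genes taken by each gene, in percent, with 1 bar for each of the 6 cultures. Gjc3 takes 49.1% to 57.5% in 5 cultures and 26.1% in replicate 5, where Gja1 takes 50.8%.

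Panx1, the ubiquitous pannexin that releases ATP, was the steadiest member. It lies on chromosome 9, 15005785 to 15045478. Its CPM was 55.4, 49.5, 51.7, 49.8, 49.0 and 49.0 in replicates 1 to 6. Replicate 1 was highest, and the other 5 cultures lay within 49.0 to 51.7 CPM. The coefficient of variation was 4.89%, against a median of 12.1% over the genes tested for variation and 44.1% for Gja1. Panx1 made up 98.1% to 99.6% of the summed CPM per kb of the 3 pannexins. Panx2 (chromosome 15, 89059057 to 89073566), known mainly from neurons of the brain, had 37, 9, 39, 17, 19 and 24 counts, or 1.61, 0.410, 1.80, 0.847, 0.908 and 1.15 CPM. Replicate 2 was the lowest for Panx2 and replicates 1 and 3 the highest. Panx3 (chromosome 9, 37659902 to 37669222), a pannexin of bone, cartilage and skin, was at or under 3 counts in every library.

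Variation between cultures was tested over the whole table. A chi-square test compared the 6 counts of each gene with counting noise, and genes with a Benjamini-Hochberg adjusted p under 0.05 were called. The filter on low counts kept 5 of the 10 members, namely Gja1, Gjb1, Gjc1, Gjc3 and Panx1, and all 5 were called, among 14998 genes tested of which 76.3% were called. Adjusted p-values of this test were 2.87e-276 for Gja1, 8.24e-138 for Gjc3, 2.07e-10 for Gjc1, 0.0114 for Panx1 and 0.0127 for Gjb1. Without the filter, 9 members were called, against 50.2% of 26854 genes, with adjusted p = 1.51e-54 for Gjb2, 7.15e-29 for Gja4 and 0.000447 for Panx2. The call of Panx3 among these rests on 3 counts in 1 library. Gjd2 had no counts to test.

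A further test, the quasi-likelihood fit of edgeR, asked whether a gene varied more than others of like abundance. It called 0 of the 5 members and 0.0% of 14998 genes at an adjusted p under 0.05. At an unadjusted p under 0.05 the edgeR fit called 807 genes (5.38%). Gja1 was among them (edgeR adjusted p = 0.901), but not without replicate 5. Without the filter Gja1, Gja4, Gjb2 and Gjc3 were under that unadjusted limit, against 5.47% of all genes, and again none passed adjustment. On data simulated with the spread of these libraries the same test recovered 0 of 200 genes changed 2-fold, so its 0 does not show that members varied like other genes. It recovered 176 of 200 genes of large spread only where all other genes were given an equal small spread, unlike these libraries. As a description, the SD of log2 CPM was 0.53 for Gja1, above that of 96.8% of the 500 genes nearest in mean CPM. It was 0.35 for Gjc3 (above 92.2%), 0.17 for Gjc1 (above 68.0%), 0.33 for Gjb1 (above 57.8%) and 0.07 for Panx1 (above 15.4%).

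**Figure D3:**
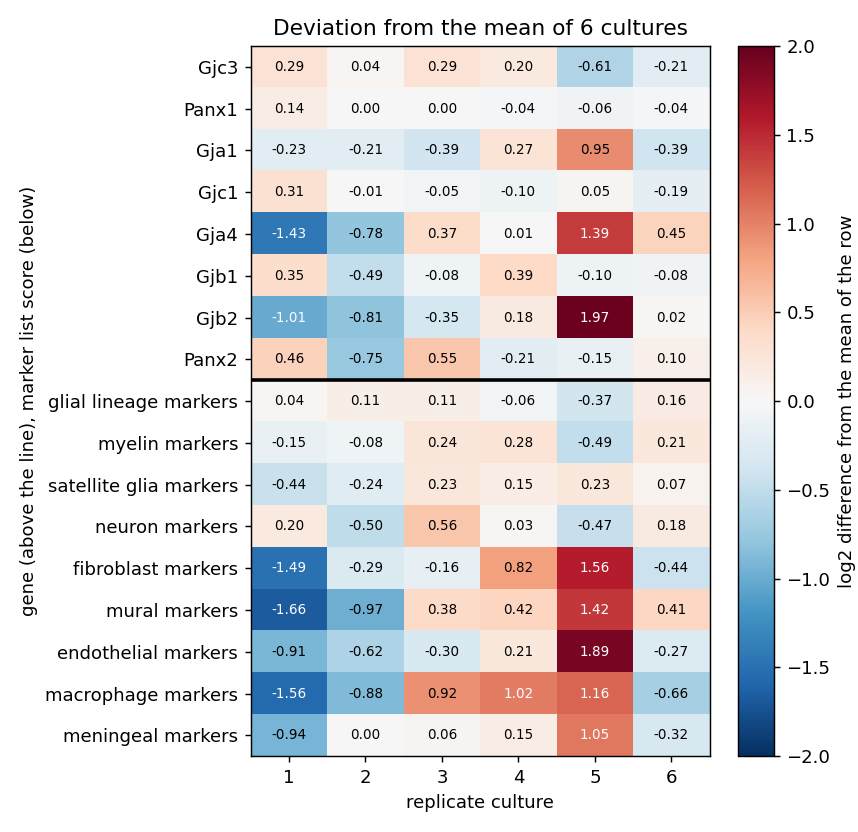
Log2 difference of each of 8 members (log2(CPM + 0.5), above the line) and of 9 marker list scores (below) from its own mean over the 6 cultures; red is higher and blue lower. Replicate 5 is high for Gja1, Gja4 and Gjb2 and for the fibroblast, mural, endothelial, macrophage and meningeal lists. It is low for Gjc3 and for the glial lineage, myelin and neuron lists. The neuron list is lowest in replicate 2, followed by replicate 5. The satellite glia score is 0.23 above its mean in replicate 5, although the summed CPM of that list there, 964, is at the bottom of its range.

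To set members beside the cells they are known from, 10 relations between a member and the score of a marker list were computed over the 6 cultures, with exact permutation over the 720 pairings. The lists and the relations were chosen with earlier results of these same data known, so their p-values are a description and not an independent test. The score is the mean log2(CPM per kb + 0.1) of the list. In bulk RNA, fewer cells of a type and less RNA per cell cannot be told apart. Pearson's r passed adjustment over the 10 relations in 7 (exact permutation adjusted p = 0.0437 each), and Spearman's rho passed in 0 (smallest exact permutation adjusted p = 0.0972). With the median of each list in place of the mean, 1 of these 7 passed, Gja4 with the mural markers (exact permutation adjusted p = 0.0417), and the other 6 gave exact permutation adjusted p = 0.0799 to 0.219.

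Gja4 followed the mural markers most closely, with r = 0.98 (exact permutation p = 0.00694) and rho = 0.83 (exact permutation p = 0.0583). Leaving out replicates 1 and 2, whose scores lay farthest from the median, gave r = 0.94. Of the 7 mural genes, 5 were above 1 CPM in all libraries, and Kcnj8 was the lowest at 0.574 CPM on average. With the endothelial markers Gja4 gave r = 0.84 and rho = 0.83 (exact permutation p = 0.0222 and 0.0583), but r was 0.46 without replicates 1 and 5, so that relation rests on those cultures. Endothelial genes were low: Cldn5 averaged 0.421 CPM, and Cdh5 24.5 CPM.

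Gja1 and the fibroblast markers gave r = 0.84 and rho = 0.71 (exact permutation p = 0.0264 and 0.136), and r was 0.95 without replicates 1 and 5. Without replicate 5 alone r was 0.63 (exact permutation adjusted p = 0.352), and with list medians it was 0.80 (exact permutation adjusted p = 0.103), so the call was lost in both. Gjb2 gave r = 0.88 and rho = 0.83 with the fibroblast markers (exact permutation p = 0.0181 and 0.0583), and r = 0.87 and rho = 0.83 with the meningeal markers (exact permutation p = 0.0306 and 0.0583). Without replicates 1 and 5 these fell to 0.55 and -0.09, so both rest on those cultures. In the meningeal list Slc6a13, Slc47a1 and Ptgds averaged under 0.3 CPM, at 0.0481, 0.284 and 0.277, while Foxc1, Zic1 and Aldh1a2 averaged 12.5, 15.3 and 12.2 CPM. All 5 of the fibroblast, mural, endothelial, macrophage and meningeal lists were highest in replicate 5 and lowest in replicate 1, so these relations do not separate the lists from each other, and the part of any cell type in them was not tested.

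Panx2 and the neuron markers gave r = 0.86 and rho = 0.94 (exact permutation p = 0.0236 and 0.0167), and r was 0.82 without replicates 2 and 5; Panx2 counts were 9 to 39. All 9 neuron genes were above 1 CPM in every library, and their summed CPM was 906 to 1967. Panx1 and the macrophage markers gave a negative r of -0.72 and rho of -0.83 (exact permutation p = 0.0278 and 0.0583). Without replicates 1 and 5, r was -0.14, and with scaling by library size alone it was -0.47 with an exact permutation adjusted p = 0.447, so this relation was not kept.

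The remaining 3 relations did not pass. Gjb1 with the myelin markers gave r = 0.22 and rho = 0.49 (exact permutation p = 0.625 and 0.356), and r was 0.87 without replicates 1 and 5. Gjc3 with the glial lineage markers gave r = 0.65 and rho = 0.09 (exact permutation p = 0.154 and 0.919), and r was -0.83 without replicates 4 and 5. Gjc1 with the mural markers gave r = -0.59 and rho = -0.37 (exact permutation p = 0.203 and 0.497), and r was 0.80 without replicates 1 and 2. The sign thus changed for Gjc3 and Gjc1.

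**Figure D4:**
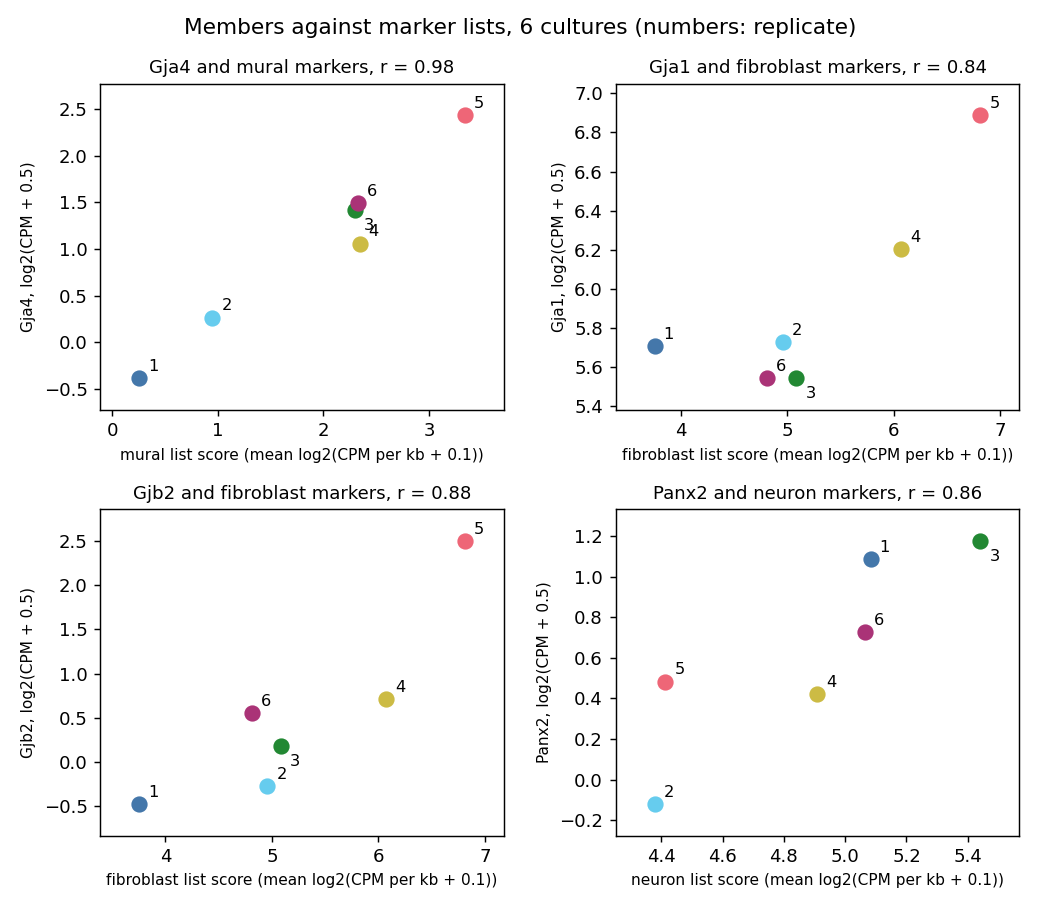
Level of Gja4, Gja1, Gjb2 and Panx2 (log2(CPM + 0.5)) against the score of the mural, fibroblast, fibroblast and neuron marker lists, with 1 numbered point for each culture. Replicate 5 is the highest point for Gja4, Gja1 and Gjb2, while for Panx2 the highest is replicate 3 and the lowest replicate 2.

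The genes with the most similar pattern over the 6 cultures were found for the 4 members above 5 CPM, among 10259 other genes of at least 10 CPM, by the root mean square difference of mean-centred log2 CPM. For Gja1 these were Egr3, an immediate early transcription factor, Glce, an enzyme of heparan sulfate synthesis, and Man1a, a Golgi mannosidase, at differences of 0.10, 0.11 and 0.13 (median of all genes 0.50). Egr3 ranged from 15.0 to 43.6 CPM, with its highest value in replicate 5 like Gja1. For Gjc3 they were Brsk2, Rhof and 4931428F04Rik, at 0.09, 0.11 and 0.11 (median 0.34). For Gjc1 they were Sestd1, Jcad and Smarca4, at 0.03, 0.04 and 0.04 (median 0.20), all highest in replicate 1. For Panx1 they were Ptpra, Gid4 and Bap1, at 0.01, 0.02 and 0.02 (median 0.14), also highest in replicate 1. These are likenesses over 6 libraries of 1 group, with no test.

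Other genes of channel assembly and of ATP signalling were widely present. Of 26 listed genes 25 were matched by symbol, 24 were above 1 CPM in all 6 libraries, and 22 of the 24 tested were called by the chi-square test, against 76.3% of all genes. All 8 plaque partners and trafficking genes were detected, the highest being Nedd4, a ubiquitin ligase that acts on Cx43, at 282.5 ± 18.7 CPM per kb (SD, n = 6). All 8 genes of ATP signalling were detected and 7 were called. They ranged from Nt5e, which makes adenosine from AMP, at 2.81 ± 0.379 CPM per kb to Entpd2, an ecto-ATPase, at 358 ± 122 CPM per kb. Among 7 other large-pore channel genes, the volume-regulated subunits ran from Lrrc8e at 2.42 ± 0.187 to Lrrc8c at 58.5 ± 5.39 CPM per kb. Lrrc8d was close to Lrrc8c, at 58.0 ± 8.73 CPM per kb, and Calhm1 was at 0 counts. Counts of Lrrc8c and Lrrc8d were fractional in all 6 libraries, those of Nedd4 and Entpd2 in 3 and those of Lrrc8e in 2. Of the 24 detected genes of the list, 5 were highest in replicate 5. The share over all genes was not counted, so this is not a result about the list.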

How the data were processed

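The data were gene counts of 6 RNA-seq libraries of mouse dorsal root ganglion cultures, 1 library for each replicate number in the sample titles. Per the labels' protocols, libraries were poly-A selected and stranded. The submitters' processing notes name cutadapt 2.5, STAR 2.7.2b, featureCounts 1.6.4 and the build GRCm38.p6; counting options are not given in the sources used here. The deposited table holds estimated counts with no scaling by the authors, of which 13.4% to 14.7% per library were fractional, and a deposited combined exon length in bases. All 6 count columns were used, and the table had 0 other columns with values of single samples.

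CPM was taken over the total count. For tests, counts were rounded; edgeR 4.0.16 gave filterByExpr, TMM factors and quasi-dispersions, and DESeq2 1.42.0 gave alternative size factors (R 4.3.3). On counts simulated without extra spread, the chi-square test recovered 194 of 200 genes changed 2-fold among 14998, with 4 other calls. Exact permutation tests were two-sided, and p-values were adjusted by the Benjamini-Hochberg method. Relations used TMM-scaled CPM. An eleventh relation, of Gjd2 with neuron markers, was not computed because Gjd2 was under 1 CPM. Named genes were the members, other connexins of at least 1 CPM on average, the highest and lowest detected gene of each partner class per kb, the 3 genes nearest in pattern to each member above 5 CPM, and marker genes; some of these are not reported here. The 10 members, the lists and the relations were chosen with earlier results of these data known. The satellite glia list (5 genes, 964 to 1548 summed CPM) was used in no relation.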

Additional observations from a re-analysis of the deposited data

Results flagged for a closer look

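In 3 of 15 measures of the members, 1 culture lay farther from the other 5 than the limit of 0.625 for the gap to its nearest neighbour divided by the range of 6 samples. For values from a normal distribution chance flags about 1 in 20 groups, or 0.75 of 15. The 3 measures are not independent, and the ratios were taken on CPM and percent, not on log2 values. Gjb2 was at 5.21 CPM in replicate 5 against 1.15 CPM in the next culture (ratio 0.814), and its share of connexin transcripts was 2.87% there against 0.773% in the next (ratio 0.767). In log2(CPM + 0.5), Gjb2 lay 1.97 above its mean in replicate 5 and 0.18 above it in the next culture. The range was 2.97, and no ratio was taken on that scale. The share of Gjc3 was 26.1% in replicate 5 and 49.1% in the next lowest culture (ratio 0.734). Gja1 in CPM, at 0.619, stayed just under the limit. Replicate 5 also held the highest summed fibroblast, mural, endothelial, macrophage and meningeal markers, whose part in these values was not tested.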

How the results depend on the processing

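No paired analysis was possible because all samples belong to 1 group. Mean levels of the members with counts moved by less than their spread under TMM scaling, DESeq2 size factors and dropped fractions, and Gjd2 stayed at 0. Leaving 1 culture of 6 out cannot move a mean by more than its SD, so that comparison cannot fail. With each culture left out the mean was 17.3 to 22.1 CPM per kb for Gja1 and 29.1 to 32.6 for Gjc3. It was 24.0 to 24.6 for Panx1, 0.836 to 1.39 for Gja4 and 0.273 to 0.688 for Gjb2. The 37 ordered pairs became 36 with no length division and 37 to 41 with a culture left out; 5 libraries cannot reach p under 0.05, so no test was made there. With no length division Gjc3 passed above Panx1 (log2 difference 1.27), and the differences Panx1 minus Gja1, Gja4 minus Gjb1 and Gjb2 minus Panx2, none called, reversed to -0.26, -0.17 and -0.25. The shares of Gja4 and Gjb1 were then 0.875% and 0.740% in place of 1.81% and 1.30%. With the 8 detected members alone, chosen after seeing the data, 21 of 28 pairs passed. The difference of Gjc3 and Gja1 with cultures left out (0.47 to 0.92) was chosen after seeing the data. Genes varying beyond counting noise numbered 11450, 13488 without the filter, where 9 members in place of 5 were called, and 10097 to 11260 with a culture left out; genes beyond the trend numbered 0 throughout.

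With list medians in place of means, only the relation of Gja4 to mural markers passed. The others that had passed gave r = 0.80 (Gja1, fibroblast), 0.86 (Gjb2, fibroblast), 0.69 (Gjb2, meningeal), 0.84 (Gja4, endothelial), -0.74 (Panx1, macrophage) and 0.63 (Panx2, neuron), and Gjb1 with myelin reversed to -0.39. Panx1 with macrophage also failed with library size alone (-0.47) and with a score pseudocount of 1 (-0.71). With each culture left out, r ranged from 0.63 to 0.98 for Gja1 with fibroblast, 0.78 to 0.92 and 0.59 to 0.94 for Gjb2 with fibroblast and meningeal, 0.97 to 1.00 and 0.76 to 0.90 for Gja4 with mural and endothelial, -0.86 to -0.43 for Panx1 with macrophage and 0.79 to 0.95 for Panx2 with neuron. With 5 libraries in place of 6, 40 of 42 such values no longer passed; the 2 that did were Gja4 with mural and endothelial markers without replicate 4. It ranged from -0.88 to 0.15 for Gjc1 with mural, -0.066 (without replicate 4) to 0.42 for Gjb1 with myelin, and -0.59 (without replicate 5) to 0.89 for Gjc3 with glial lineage. Counts of 5 to 109 for Gja4, Gjb1, Gjb2 and Panx2 limit their precision.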

Other observations

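Several connexin genes lie side by side in the genome, and neighbours of Gja4 and Gjb2 were looked up after the values were seen. On chromosome 4, Gjb5 (127354809 to 127358164), a connexin known mainly from skin, lies near Gja4 (GRCm38.p6). Gjb5 had 5, 17, 16, 9, 35 and 6 counts in replicates 1 to 6, highest in replicate 5 and lowest in replicate 1, as for Gja4. On chromosome 14, Gjb2 lies between Gja3 (57034460 to 57058030) and Gjb6 (57123301 to 57133611), lens and skin connexins. Gjb6 had 1 count in replicate 5 and 0 elsewhere, and Gja3 had 0 to 7 counts. These neighbours of Gjb2 were thus near the detection limit also in replicate 5, where Gjb2 had 109 counts.

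Gja5, which encodes Cx40 of arterial endothelium, had 1 to 17 counts with the highest value in replicate 5.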
